A study of Mus musculus with 18 samples.

Results

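Endoplasmic reticulum (ER) chaperones and the unfolded protein response were described as a group of 34 mouse genes, chosen by gene symbol from the 24062 lines of a raw count table. All 34 symbols were found, 1 line each. The table came from poly(A)-selected RNA of C57BL/6 mice that were Chd2+/- (HET) or wild type (WT), in hippocampus aged P45 and in the cortex and medial ganglionic eminence (MGE) aged E13.5. HET and WT hippocampus, HET and WT cortex and HET and WT MGE made 6 groups of 3 libraries, and no treatment was named. The sources used here name neither the type of Chd2 allele nor the number of animals behind a library. They do not say that libraries came from separate animals, and the p-values cover no more than the spread between libraries, which may be technical. Chd2 is a chromatin remodelling enzyme of the CHD family. Hippocampus differed from the embryonic tissues in age as well as in tissue, and those differences cannot be told apart.

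The ER folds secreted and membrane proteins with the help of Hsp70 and Hsp90 family chaperones, lectin chaperones and protein disulphide isomerases. When unfolded proteins accumulate, the sensors ATF6, IRE1 (Ern1) and PERK (Eif2ak3) start the unfolded protein response. Cleaved ATF6 and the spliced product of Xbp1 raise chaperone and degradation genes, whereas PERK slows translation and favours synthesis of ATF4, a transcription factor whose targets include Ddit3 and Trib3. ER-associated degradation (ERAD) extracts misfolded proteins for disposal by the proteasome. The members were accordingly read as 17 genes of a chaperone arm (ATF6 and XBP1 targets), 4 genes of an ATF4 arm, 5 sensors and transducers and 8 ERAD genes.

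Library totals ran from 26841671 to 38802765 counts. Levels are given as CPM, counts scaled to library size and by TMM over all 18 libraries, with the SD over 3 libraries, and fold changes as log2 values with their standard error (SE). Chd2 was lower in each HET library than in each WT library of its tissue, with means of 138.7 ± 4.38 CPM in HET MGE and 163 ± 10.98 CPM in WT MGE. The means were 124.5 ± 0.709 CPM in HET cortex and 146.6 ± 5.16 CPM in WT cortex, and 66.0 ± 1.57 CPM in HET hippocampus and 74.5 ± 4.12 CPM in WT hippocampus. None of the 3 Chd2 differences passed an adjusted p of 0.05 (edgeR, adjusted p 0.980, 0.578 and 0.191). In MGE, the 3 HET libraries held Y-linked counts and the 3 WT libraries held Xist, so genotype and sex markers cannot be told apart there. In cortex, HET 1, HET 3 and WT 1 held Y-linked counts, and in hippocampus all 6 libraries held Xist. Tissue markers matched the labels, with summed MGE and interneuron markers at 2200.3 to 2813 CPM in MGE libraries and 17.7 to 64.1 CPM in cortex libraries, and summed excitatory neuron markers at 7828 to 9109 CPM in hippocampus libraries and 48.3 to 70.1 CPM in MGE libraries.

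In the hippocampus, 5 of the 17 genes of the chaperone arm passed the test, all lower in HET libraries, and none of the 3 genes tested of the ATF4 arm passed. The members were chosen with genotype results of these libraries known, so the hippocampal genotype values are a description and support nothing further. Of 33 members tested, 5 passed an adjusted p of 0.05 (edgeR quasi-likelihood test, Benjamini-Hochberg over all tested genes), where 1.07% of 15283 genes were called. All 5 were lower in HET, against 0.811% of all genes called lower and 0.262% called higher. The 5 were Pdia4, Creld2, Hyou1, Herpud1 and Dnajc3, all of the chaperone arm as grouped here. With 1.07% of all genes called, no call among 3 genes of the ATF4 arm does not set the arms apart. Fold changes of 29 of the 33 members lay below 0, against 48.6% of all genes, and 18 had an unadjusted p under 0.05, against 15.6% of all genes. Their median fold change was -0.23 against 0.00 for all genes. HET and WT libraries did not overlap, with HET lower, for 15 members (11.7% of all genes), and 1 member, Dnajc10, was higher without overlap (9.17% of all genes).

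Hspa5 encodes BiP, the Hsp70 chaperone of the ER that also holds the stress sensors inactive. It was at 243, 217 and 158 CPM in HET hippocampus, against 316, 315 and 418 CPM in WT hippocampus. All 3 HET libraries lay below all 3 WT libraries, and the spread within each genotype was wide. The log2 fold change was -0.76 (SE 0.20), the second lowest of the members, and it did not pass the threshold. Hyou1, an Hsp110-type chaperone that exchanges nucleotide on BiP, had 131, 114 and 104 CPM in HET and 151, 150.3 and 179 CPM in WT hippocampus, a log2 fold change of -0.46 (SE 0.09). Sdf2l1, a partner of BiP and its J proteins, had 14.7, 12.2 and 12.03 CPM in HET and 19.2, 18.005 and 27.1 CPM in WT hippocampus, at -0.72 (SE 0.15). For both genes the genotypes did not overlap, and WT 3 was the highest library.

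Protein disulphide isomerases, which form and rearrange disulphide bonds, differed in size of change. Pdia4 had 43.0, 36.5 and 34.6 CPM in HET hippocampus and 53.9, 53.4 and 68.5 CPM in WT hippocampus, a log2 fold change of -0.62 (SE 0.11). Pdia6 had 124, 115 and 85.3 CPM in HET and 137, 147 and 198 CPM in WT hippocampus, at -0.56 (SE 0.20). Neither gene overlapped between genotypes, whereas Pdia3 did, at -0.24 (SE 0.10). P4hb, the founding member of the family, differed by -0.09 (SE 0.05) with 114 ± 1.04 CPM in HET and 122 ± 6.995 CPM in WT. Creld2, an ER protein with isomerase activity, had 17.95, 13.8 and 14.3 CPM in HET and 21.8, 20.4 and 26.4 CPM in WT hippocampus. Its log2 fold change was -0.57 (SE 0.12), again with no overlap.

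J proteins pass clients to BiP, and they did not move as one. Dnajc3 (p58IPK, also an inhibitor of PERK) had 62.5, 59.7 and 56.1 CPM in HET hippocampus and 71.2, 78.0 and 83.8 CPM in WT hippocampus, at -0.38 (SE 0.07). Dnajb9 and Dnajb11 overlapped between genotypes, at -0.21 (SE 0.10) and -0.19 (SE 0.10). Dnajc10, an ER reductase with a J domain, was at 62.5, 69.7 and 63.5 CPM in HET and 60.2, 61.2 and 59.96 CPM in WT hippocampus, at 0.11 (SE 0.06). It was the only gene of the chaperone arm with a positive fold change.

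The lectin chaperones, which bind newly made glycoproteins, stood apart from each other. Calr (calreticulin, the soluble one) had 432, 341 and 293 CPM in HET hippocampus and 452, 462 and 543 CPM in WT hippocampus, at -0.44 (SE 0.14). Canx (calnexin, the membrane-bound one) had 299, 319.9 and 279.8 CPM in HET and 300.2, 295 and 338 CPM in WT hippocampus, at -0.05 (SE 0.07). Calr did not overlap and Canx did. Hsp90b1 (GRP94, the ER Hsp90) averaged 273 ± 37.4 CPM in HET and 335 ± 58.2 CPM in WT, at -0.29 (SE 0.14), with overlap. Manf, a secreted ER stress protein with neurotrophic activity, averaged 40.6 ± 6.10 CPM in HET and 56.8 ± 10.01 CPM in WT, at -0.48 (SE 0.14), without overlap. Herpud1, a membrane protein of ERAD induced by ER stress, had 40.1, 43.5 and 41.4 CPM in HET hippocampus and 54.8, 50.9 and 60.7 CPM in WT hippocampus. Its log2 fold change was -0.41 (SE 0.07).

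**Figure D1:**
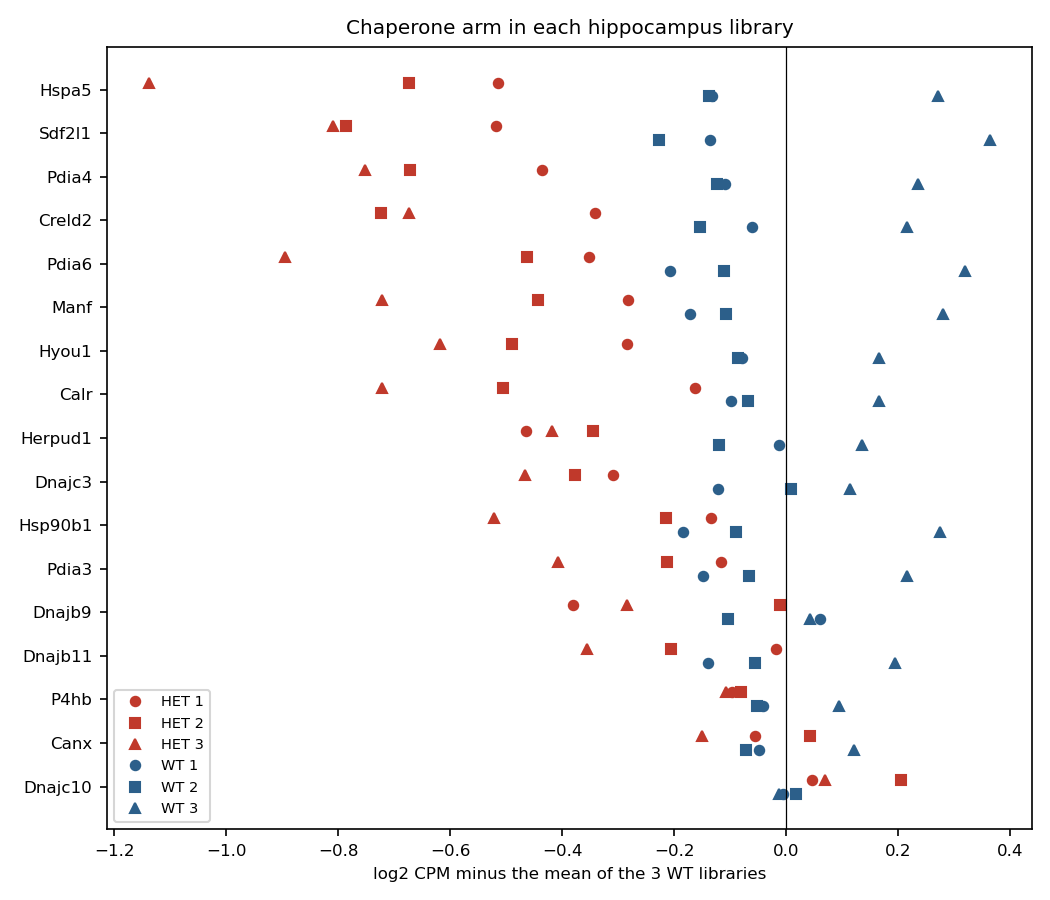
Each row is a gene of the chaperone arm and each point a hippocampus library, plotted as log2 CPM minus the mean of the 3 WT libraries (red HET, blue WT, marker shape by library number). For 11 of the 17 genes the HET points lie wholly to the left of the WT points (11.7% of all genes). WT 3 is the rightmost point in 15 of the 17.

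Over the 17 genes, 16 fold changes were below 0 (48.6% of all genes), with a median of -0.41. Of the 17, 11 were lower without overlap (11.7% of all genes). The order of the libraries was not shared evenly: WT 3 was the highest of the 6 hippocampus libraries for 15 of the 17 genes and HET 3 the lowest for 13. Mean log2 levels of the arm, set against the WT mean, were -0.26, -0.35 and -0.53 in HET 1, 2 and 3 and -0.10, -0.09 and 0.19 in WT 1, 2 and 3. Without WT 3 and HET 3, a choice made after seeing the data, 15 of the 17 genes stayed below 0 with a median of -0.25 and none passed the threshold (0.0391% of all genes called). Without HET 3 alone no member passed (0.149% of all genes), and without WT 3 alone Pdia4 passed (0.769%). Without WT 2 alone Herpud1 passed (0.239%), and without HET 2 alone Dnajc3 and Herpud1 passed (0.99%). DESeq2 called 10 members, adding Hspa5, Manf, Sdf2l1, Xbp1 and Syvn1 to the 5, and it called 2.91% of all genes.

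Promoter sequence was examined because ATF6 with NF-Y binds the ER stress response element, CCAAT and CCACG separated by 9 bases. RefSeq windows from 250 bases before to 50 bases after the start (GRCm38.p6) were matched for 30 of the 34 members. The full element, on either strand, was in the windows of 9 members (30%), against 39 of 32851 windows in the table (0.119%). Members are counted once each, although they had 31 windows. The members were listed as genes of this response and the chaperone arm as ATF6 and XBP1 targets. Their shares in these searches therefore describe the list and test nothing. The 9 were Hspa5, Hsp90b1, Pdia6, Dnajc3, Creld2, Calr and Canx of the chaperone arm and Syvn1 and Derl3 of ERAD. The element with 30 bases on each side is shown for the 7 chaperone genes, on the strand of the gene, with the half-sites in capitals. CGTGG before ATTGG marks an element in the opposite direction.
Hspa5: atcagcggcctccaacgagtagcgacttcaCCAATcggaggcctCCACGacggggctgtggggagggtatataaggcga
Hsp90b1, distal: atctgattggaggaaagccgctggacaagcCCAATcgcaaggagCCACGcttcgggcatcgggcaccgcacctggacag
Hsp90b1, proximal: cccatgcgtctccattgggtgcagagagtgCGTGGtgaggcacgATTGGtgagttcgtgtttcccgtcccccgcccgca
Calr: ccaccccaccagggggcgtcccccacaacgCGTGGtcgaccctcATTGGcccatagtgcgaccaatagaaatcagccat
Canx: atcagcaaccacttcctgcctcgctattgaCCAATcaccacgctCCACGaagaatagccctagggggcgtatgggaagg
Pdia6: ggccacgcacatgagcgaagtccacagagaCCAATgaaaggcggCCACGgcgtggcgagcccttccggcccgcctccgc
Dnajc3: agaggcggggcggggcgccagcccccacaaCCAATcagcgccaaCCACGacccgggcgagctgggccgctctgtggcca
Creld2: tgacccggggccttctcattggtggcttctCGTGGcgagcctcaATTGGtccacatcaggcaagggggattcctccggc

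The stretches shown lay at chr2:34771995-34772073 (plus strand) for Hspa5, chr10:86705608-86705686 and chr10:86705503-86705581 (minus strand) for Hsp90b1, and chr8:84847045-84847123 (minus strand) for Calr. Those of Canx, Pdia6, Dnajc3 and Creld2 lay at chr11:50325770-50325848 (minus strand), chr12:17266461-17266539, chr14:118937797-118937875 and chr15:88819490-88819568 (plus strand). Counted from the RefSeq start that defines the window, which differs from the GENCODE gene start for some of these genes, the first base of the element lay at -65 in Hspa5, -212 and -107 in Hsp90b1, -162 in Calr, -145 in Canx, -98 in Pdia6, -105 in Dnajc3 and -126 in Creld2. Canx held a full element and differed by -0.05 in HET hippocampus, whereas Hspa5, with one as well, differed by -0.76. Allowing 1 mismatch in CCACG, 15 of the 30 members matched, against 0.998% of all windows, with Pdia4 and Herpud1 among them. CCACG alone was in 23 of the 30 and in 32.8% of all windows. The XBP1 core TGACGTG was found in Hspa5 alone of the members (2.01% of all windows), and the ATF4 composite site TGATGCAA in Herpud1 alone (0.895% of all windows), both on either strand. CCACG can lie within the full element, so the counts of these searches overlap. A match describes these letters and is not evidence of binding.

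Sensors and transducers sat nearer to 0, except Xbp1. Xbp1, whose mRNA is spliced by IRE1 to give the active factor, had 69.2, 64.0 and 55.1 CPM in HET hippocampus and 83.7, 78.8 and 98.1 CPM in WT hippocampus. The genotypes did not overlap, and the log2 fold change was -0.46 (SE 0.10). The counts are per gene, so the spliced and unspliced forms of Xbp1 were not separated. Ern1 (IRE1) differed by -0.30 (SE 0.13), Eif2ak3 (PERK) by -0.11 (SE 0.08), Atf6b by -0.11 (SE 0.06) and Atf6 by -0.03 (SE 0.09), each with overlap. None of the 5 passed the threshold.

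In the ATF4 arm, Atf4 had 93.5, 102 and 99.5 CPM in HET hippocampus and 97.7, 94.8 and 93.0 CPM in WT hippocampus, at 0.05 (SE 0.06). Atf4 protein is set mainly by translation, which these counts do not measure. Ddit3 (CHOP, a factor of stress-induced cell death) had 20.2, 18.6 and 17.9 CPM in HET and 20.1, 22.4 and 24.4 CPM in WT hippocampus, at -0.23 (SE 0.09), and the genotypes overlapped. Ppp1r15a (GADD34, which directs dephosphorylation of eIF2α) was at 13.53 ± 0.964 CPM in HET, against 14.1 ± 0.758 CPM in WT. Trib3, a pseudokinase, was at 0.235 ± 0.0456 CPM in HET, against 0.223 ± 0.111 CPM in WT and was too low to be tested. None of the 3 genes tested passed, and their median fold change was -0.06.

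**Figure D2:**
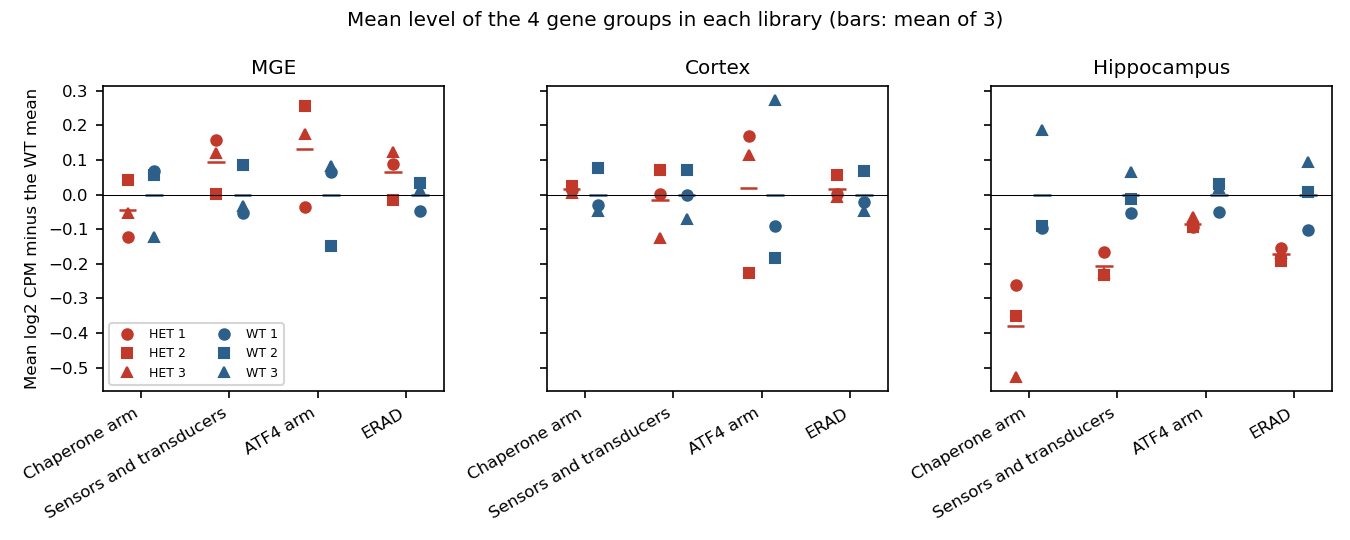
Mean log2 CPM of the 4 gene groups in each library, minus the mean of the 3 WT libraries of the tissue (red HET, blue WT, bars the mean of 3 libraries). In hippocampus the chaperone arm lies at -0.26 to -0.53 in HET libraries and the ATF4 arm at -0.06 to -0.10, while in MGE and cortex the chaperone arm of HET libraries lies within the range of WT libraries.

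Set side by side in hippocampus, the chaperone arm had a mean log2 fold change 0.29 below that of the ATF4 arm, with 17 genes against 3. The difference was -0.12 without WT 3 and HET 3. Herpud1, counted in the chaperone arm, is a protein of ERAD whose promoter window held the ATF4 composite site. Over 10 alternatives, which included moving Herpud1 to the ATF4 arm, the difference ran from -0.36 to -0.12. The mean level of the ATF4 arm was -0.10, -0.09 and -0.06 in HET 1, 2 and 3 and -0.05, 0.03 and 0.02 in WT 1, 2 and 3. Of 24 further ATF4 target genes, 1 was called lower (0.811% of all genes) and none higher (0.262% of all genes), with a median of -0.01. That gene was Slc7a5, an amino acid transporter, at 47.0 ± 1.25 CPM in HET, against 68.0 ± 4.88 CPM in WT hippocampus (log2 fold change -0.53, SE 0.07). Of 26 further ER folding and translocation genes none was called in hippocampus (edgeR, 3 at an unadjusted p under 0.05), and 18 lay above 0 with a median of 0.06. Of 26 further regulators and ERAD genes none was called either (edgeR, 3 at an unadjusted p under 0.05), with a median of -0.01.

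Fold changes of the 8 ERAD genes ran from -0.77 to 0.04. Syvn1 (HRD1, the ubiquitin ligase) had 63.4, 53.1 and 59.2 CPM in HET hippocampus and 72.7, 71.4 and 72.4 CPM in WT hippocampus, at -0.30 (SE 0.07). Its partner Sel1l had 249.7, 236 and 220.2 CPM in HET and 261, 271 and 287 CPM in WT hippocampus, at -0.21 (SE 0.06). Derl3, a low-abundance member of the derlin family, had 2.12, 2.15 and 2.36 CPM in HET and 2.38, 4.24 and 4.70 CPM in WT hippocampus, at -0.77 (SE 0.25). These 3 genes were lower in HET without overlap (11.7% of all genes), although for Derl3 the gap between HET 3 and WT 1 was small. Derl1, Derl2, Edem1, Edem2 and the lectin Os9 lay between -0.10 and 0.04 and overlapped. None of the 8 passed the threshold.

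Endothelial markers moved with genotype in the same libraries. All 8 were below 0 in HET hippocampus with a median of -0.40, 2 were called lower, and their summed level was 109 to 127 CPM in HET libraries and 162 to 171 CPM in WT libraries. Summed oligodendrocyte markers ran from 7252 to 10634 CPM in HET libraries and from 6768 to 8598 CPM in WT libraries. Summed choroid plexus markers ran from 221 to 313 CPM in HET libraries and from 203 to 222 CPM in WT libraries. Most of that sum was Enpp2. HET libraries 1, 2 and 3 held 255, 181 and 228 CPM of Enpp2, and WT libraries 1, 2 and 3 held 165, 172 and 158 CPM. Ttr, also in the choroid plexus list, was at only 4.19 to 14.1 CPM over the hippocampus libraries. The sum thus mainly gives the level of Enpp2. Of 9 choroid plexus markers tested one by one in hippocampus, 3 lay below 0, with a median log2 fold change of 0.43. None of them was called (edgeR, 1.07% of all genes). Whether the amount of choroid plexus tissue differed was not tested. The part of these cell type markers in the hippocampal values was not tested, and in tissue RNA fewer cells of a type cannot be told apart from less RNA per cell.

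In MGE no member passed the threshold in edgeR, DESeq2 or limma-voom, where edgeR called 0.0479% of 14624 genes. At an unadjusted p under 0.05 there were 2 members, Dnajb9 and Derl2, against 4.51% of all genes. Dnajb9, the J protein of ERAD, averaged 13.7 ± 1.83 CPM in HET and 18.9 ± 3.70 CPM in WT MGE, at -0.46 (SE 0.16, edgeR adjusted p 0.980). Derl2 averaged 37.2 ± 0.382 CPM in HET and 43.4 ± 4.07 CPM in WT, at -0.22 (SE 0.10). The median of the 34 members was 0.02. Of them, 20 lay above 0 and 14 below, against 47.9% of all genes below 0. Hspa5 had 307, 361 and 295 CPM in HET MGE and 365, 348 and 294 CPM in WT MGE, and the genotypes overlapped. Of the chaperone arm 12 of 17 genes lay below 0, with a median of -0.04, and the 4 ATF4 arm genes lay above 0, with a median of 0.13. Derl3, Ddit3 and Edem1 were higher without overlap (4.23% of all genes) and Derl2 lower (5.47% of all genes).

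In cortex no member passed either, in edgeR, DESeq2 or limma-voom, where edgeR called 0% of 14757 genes. No member had an unadjusted p under 0.05 in edgeR, against 7.89% of all genes. The members divided into 17 above and 17 below 0, with a median of 0.02, against 47.7% of all genes below 0. Hspa5 had 355, 401 and 378 CPM in HET cortex and 374, 411 and 361 CPM in WT cortex, which overlapped. The lowest adjusted p was shared by several genes at 0.578, among them Dnajb11 at 0.24 (SE 0.11) and Hyou1 at 0.24 (SE 0.12). Hsp90b1 was higher without overlap (5.26% of all genes), at 515 ± 3.24 CPM in HET, against 493 ± 7.26 CPM in WT, and Dnajc3 lower (5.87% of all genes), at 41.9 ± 2.08 CPM in HET, against 46.4 ± 1.80 CPM in WT. Cortex rested on HET 3: without it 9 members passed, among 30.7% of all genes called. Of those, Pdia3, P4hb, Hyou1, Dnajb11, Syvn1, Edem1 and Canx were higher in the other 2 HET libraries and Manf and Os9 lower. Summed excitatory neuron markers were at 1169, 1083 and 1894 CPM in HET 1, 2 and 3 and at 1746, 1832 and 2141 CPM in WT 1, 2 and 3. Choroid plexus markers were at 26.6, 289.9 and 492 CPM in HET 1, 2 and 3. In WT 1, 2 and 3 they were at 1682, 23.7 and 1288 CPM. Red blood cell markers were at 937, 1160 and 379 CPM in HET 1, 2 and 3. In WT 1, 2 and 3 they were at 299, 382 and 451 CPM. Neural progenitor markers were at 3656, 3480 and 2805 CPM in HET 1, 2 and 3. In WT 1, 2 and 3 they were at 3010, 3295 and 2752 CPM. The part of these markers in the cortex values was not tested.

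**Figure D3:**
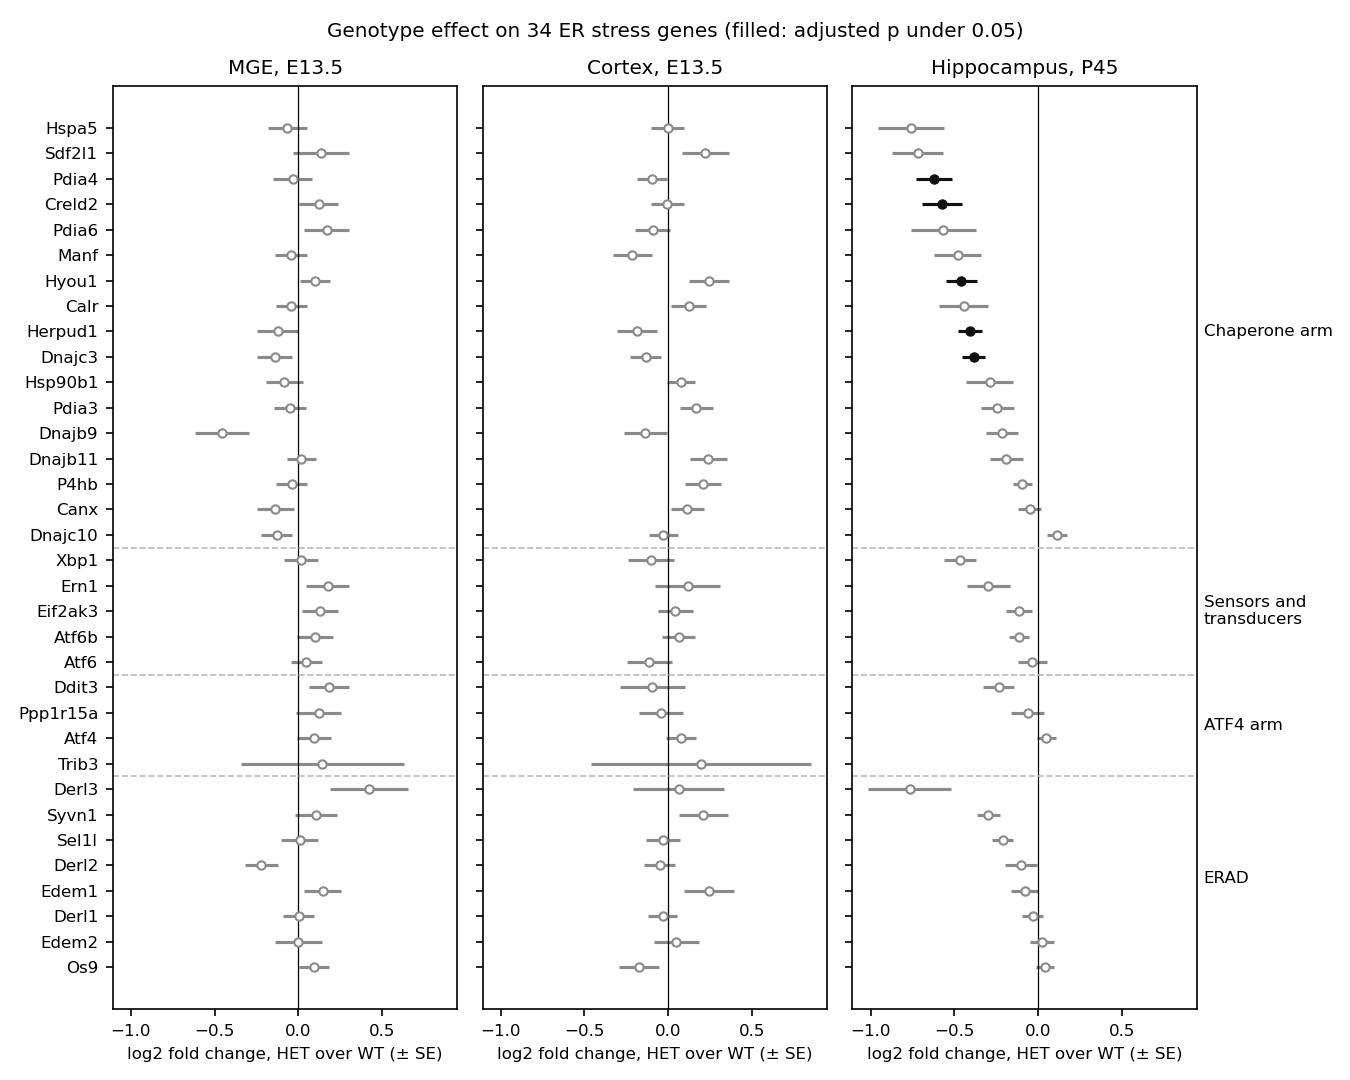
log2 fold change of HET over WT for the 34 members in the 3 tissues, with bars of 1 SE, ordered within each gene group by the hippocampal value. Filled points passed an adjusted p of 0.05, which only 5 genes of the chaperone arm in hippocampus did, and Trib3 has no hippocampal point because it was too low to be tested.

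Whether the genotype effect differed between tissues was tested as an interaction in a single fit of the 18 libraries. No member passed in any of the 3 contrasts with edgeR, where 0.0124% of genes (hippocampus minus cortex), 0.0062% (hippocampus minus MGE) and 0% (MGE minus cortex) were called. At an unadjusted p under 0.05 there were 12 members for hippocampus minus cortex, 12 for hippocampus minus MGE and 0 for MGE minus cortex, against 12.8%, 7.36% and 7.01% of all genes. DESeq2 called 1 member, for hippocampus minus cortex, where it called 0.478% of all genes. Both hippocampal contrasts contain hippocampus libraries, whose genotype results were known when the members were chosen. The lowest adjusted p was 0.205 for Hyou1, at -0.69 (SE 0.16) in hippocampus minus cortex. Hspa5 was at -0.75 (SE 0.21) and Sdf2l1 at -0.93 (SE 0.25) in the same contrast. The call count again rested on cortex HET 3, without which 10 members passed for hippocampus minus cortex, among 17.1% of all genes.

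Fold changes of the members ran from -1.31 to 1.71 in WT hippocampus over WT cortex and from -0.77 to 0.11 in HET over WT hippocampus. Between WT hippocampus and WT cortex, 27 of the 34 members differed, 16 higher (38.6% of all 16125 genes) and 11 lower (40.2%), and between WT hippocampus and WT MGE also 27, 17 higher (40.8%) and 10 lower (39.6%). The share of members called was close to the 78.9% and 80.4% of all genes called in these contrasts. The contrasts share the WT hippocampus libraries. Between WT MGE and WT cortex, 6 members were called, against 44.3% of all genes. Of these, 1 was higher (21.4% of all genes) and 5 were lower (22.9%).

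Of the 17 genes of the chaperone arm, 8 were lower and 6 higher in WT hippocampus than in WT cortex, near the 40.2% and 38.6% of all genes. The 6 higher were Herpud1, Dnajb9 and Dnajc3, at log2 fold changes of 0.87, 0.81 and 0.74, and Hyou1, Sdf2l1 and Dnajb11, at 0.70, 0.49 and 0.36. Those lower included folding enzymes. P4hb was at 122 ± 6.995 CPM in WT hippocampus and 289.8 ± 17.5 CPM in WT cortex (log2 fold change -1.25, SE 0.08, edgeR adjusted p 2.17e-10). Pdia6 was at 161 ± 32.6 CPM in WT hippocampus and 398 ± 35.0 CPM in WT cortex, at -1.31 (SE 0.16). Pdia4 and Manf fell to a like extent, at -1.25 (SE 0.12) and -1.22 (SE 0.13). Atf4 was at 95.2 ± 2.41 CPM in WT hippocampus and 187 ± 5.58 CPM in WT cortex, at -0.97 (SE 0.09). Hspa5, Calr and Canx did not pass in this contrast, with Hspa5 at 349.8 ± 59.2 CPM in WT hippocampus and 382 ± 26.1 CPM in WT cortex.

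Of the 5 sensors and transducers, 3 were higher and none lower in WT hippocampus than in WT cortex, and of the 8 ERAD genes 6 were higher and 2 (Derl2 and Edem1) lower, where 78.9% of all genes were called in either direction. Atf6 was at 120.1 ± 17.4 CPM in WT hippocampus, 36.6 ± 3.81 CPM in WT cortex and 35.7 ± 0.467 CPM in WT MGE. Its log2 fold changes were 1.71 (SE 0.11) over WT cortex and 1.75 (SE 0.11) over WT MGE. Sel1l was at 273 ± 13.2 CPM in WT hippocampus, 86.3 ± 3.25 CPM in WT cortex and 98.7 ± 5.35 CPM in WT MGE, at 1.66 (SE 0.10) over WT cortex. Xbp1 was at 86.8 ± 10.05 CPM in WT hippocampus and 38.2 ± 3.07 CPM in WT MGE, at 1.19 (SE 0.12), and it was lower in WT MGE than in WT cortex (69.2 ± 5.54 CPM), at -0.86 (SE 0.12). Ern1 and Eif2ak3 passed in none of the 3 WT contrasts.

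**Figure D4:**
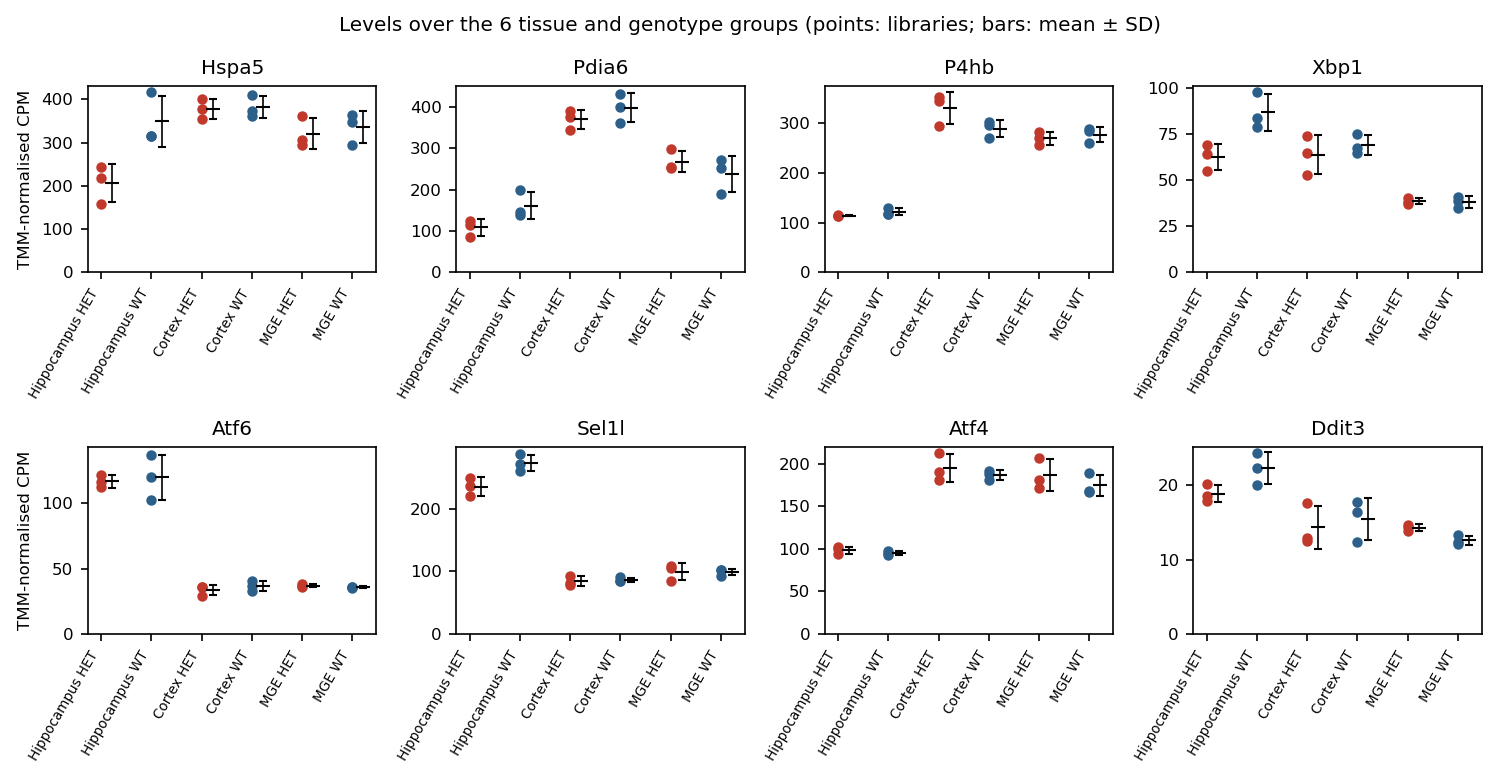
CPM of 8 members in each library of the 6 groups (red HET, blue WT, black bars the mean ± SD of 3 libraries, axes from 0). Pdia6, P4hb and Atf4 are lower and Atf6 and Sel1l higher in hippocampus than in the embryonic tissues in both genotypes, while for Hspa5 and Xbp1, which did not pass between genotypes, the 3 HET hippocampus libraries lie below the 3 WT hippocampus libraries.

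The same contrasts between HET tissues compared HET libraries, but they came from the fit of all 18 libraries. Filter, scaling and the estimate of the spread were shared with the WT contrasts, so calls in HET and WT are not independent. Hippocampus and cortex differed in 28 members in HET (80.2% of all genes), 12 higher (39.4% of all genes) and 16 lower (40.8%), and 23 members were called the same way in both genotypes, 12 higher and 11 lower, against 72.8% of all genes called the same way in both. Hspa5 was called in HET (-0.87, SE 0.15, edgeR adjusted p 2.69e-05) and not in WT (-0.13, SE 0.14). Sdf2l1 was called lower in HET hippocampus than in HET cortex (-0.44, SE 0.18) and higher in WT hippocampus than in WT cortex (0.49, SE 0.18). For both genes the difference between the genotypes is the interaction given above, which did not pass. Hippocampus and MGE differed in 27 members in HET (81.3% of all genes), 12 higher (41.2% of all genes) and 15 lower (40.1%), 22 of them called the same way in WT, against 75.4% of all genes. MGE and cortex differed in 11 members in HET (41% of all genes), 3 higher (19% of all genes) and 8 lower (22%), which included the 6 called in WT, where 31.6% of all genes were called the same way in both.

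Levels of different genes were compared per kilobase of exon (GENCODE M21). Calr was highest in hippocampus of both genotypes, at 123 ± 24.5 CPM per kb in HET and 169 ± 17.3 CPM per kb in WT. Hsp90b1 came second, at 67.8 ± 9.26 CPM per kb in HET and 83.1 ± 14.4 CPM per kb in WT. Hspa5 held rank 6 of the members in HET hippocampus, at 48.7 ± 10.3 CPM per kb, and rank 3 in WT hippocampus, at 82.7 ± 14.0 CPM per kb, where it and Hsp90b1 differed by less than their SDs. Trib3 was lowest, at 0.110 ± 0.0215 CPM per kb in HET and 0.105 ± 0.0524 CPM per kb in WT. Exons of other genes overlapped some members, and no source used here names the strand setting of the counts. For Hsp90b1, 10.3% of its exon bases are shared with a pseudogene on the opposite strand.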

How the data were processed

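The authors deposited 1 table of raw counts, whole numbers per gene symbol with no normalization. Per the submitters' processing notes, FastQC, Trimmomatic, TopHat2 2.1.1, SAMtools and DESeq2 were used with mm10. No source used here names the counting program, the annotation or the strand setting. Libraries were prepared with poly(A) selection, per the labels' protocols. The members, gene groups, marker lists and further pathway lists were chosen with earlier results of these data known. Which values led to the choice is not recorded.

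Genotypes were compared in each tissue with edgeR 4.0.16 in R 4.3.3 on the deposited counts (filterByExpr with minimum count 10 and minimum total 15, TMM, robust quasi-likelihood F test, Benjamini-Hochberg over all tested genes, threshold 0.05). Tissues and interactions were tested in 1 fit of 18 libraries. The SE is the absolute fold change divided by the square root of F. Levels of gene groups are means of log2 CPM with a prior count of 2. All 34 members could be named. Alternatives were DESeq2 1.42.0, limma-voom 3.58.1, other scalings, no filter, a replicate block, a Y-linked covariate and libraries left out in turn. For the arm difference, they also included a wider ATF4 arm and Herpud1 moved to the ATF4 arm. Symbols that had become calendar dates filled 27 lines and were kept. Replicates of the same group differed by 5.79 to 100.5 times counting noise, so none was a copy of another in its group. Libraries of different groups were not compared in this way. Of 31 promoter windows of members, 25 were matched to GENCODE transcripts in the direction of the gene, and those of Dnajc3 and Derl3, both with the full element, were not among them.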

Additional observations from a re-analysis of the deposited data

Results flagged for a closer look

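HET and WT libraries were separated for Derl3 in 2 tissues, with opposite signs. Neither difference passed the threshold (edgeR, adjusted p 0.980 in MGE and 0.173 in hippocampus). Of all genes, 4.23% were higher without overlap in MGE and 11.7% lower without overlap in hippocampus. Derl3 was low, with 50 to 81 counts in MGE libraries and 59 to 148 counts in hippocampus libraries. In MGE all 3 HET libraries lay above all 3 WT libraries, with 2.16 ± 0.116 CPM in HET MGE against 1.61 ± 0.0671 CPM in WT MGE, a log2 fold change of 0.42. In hippocampus all 3 HET libraries lay below all 3 WT libraries, with 2.21 ± 0.135 CPM in HET hippocampus against 3.77 ± 1.23 CPM in WT hippocampus, a log2 fold change of -0.77. The difference of the effects, hippocampus minus MGE, was -1.19 (SE 0.33) and did not pass in the interaction test of edgeR (adjusted p 0.462). In MGE, genotype and sex markers cannot be told apart.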

How the results depend on the processing

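With 3 libraries a group, calls near the threshold moved with the setting. In hippocampus, where 5 members were called, upper-quartile scaling gave 3 (0.811% of all genes called), no filter on low counts 8 (1.52%) and DESeq2 10 (2.91%). A Y-linked covariate gave 1 (0.569%) and a single fit of all 18 libraries 0 (0.0682%). Summed Y-linked levels were only 0 to 0.104 CPM in hippocampus libraries, so the covariate cannot tell of sex there. Replicate numbers did not pair HET with WT hippocampus libraries, which correlated at -0.07, -0.06 and 0.06, and the replicate block gave 0 calls (0.523% of all genes). For WT MGE the same-numbered library was the best match each time, at 0.02, 0.07 and 0.10 with WT cortex. With HET cortex it was at 0.14, 0.04 and 0.20. For HET MGE it was never the best match in either cortex group. A batch shared by number in the embryonic tissues was not tested. In hippocampus, leaving out 1 library gave 0 to 7 calls, and leaving out WT 3 and HET 3 together gave 0, with the member median at -0.14. The 5 called genes stayed below 0 in all 15 alternatives. Their HET and WT libraries did not overlap, so these signs were close to fixed and tell nothing further. Of the 15 alternatives, Dnajc3 was called in 9, Pdia4 and Herpud1 in 8 each, and Hyou1 and Creld2 in 5 each. In cortex, leaving out 1 library gave 0 to 9 calls, and for the interactions it gave 0 to 10 (hippocampus minus cortex) and 0 to 1 (MGE minus cortex), in each case with cortex HET 3 left out, and DESeq2 gave 1 for hippocampus minus cortex. In MGE the arm difference was -0.18 and became -0.019 with 24 further ATF4 targets added to the ATF4 arm. MGE against cortex called 11 members in HET groups and 6 in WT groups. With HET groups in place of WT groups, 8 fold changes called in at least 1 genotype changed sign. For hippocampus against cortex they became -0.061 for Dnajb11, -0.44 for Sdf2l1, -0.024 for Xbp1 and -0.47 for Calr. For hippocampus against MGE they became -0.64 for Hspa5, -0.074 for Hyou1 and -0.52 for Sdf2l1, and for MGE against cortex Os9 became 0.25. The causes were not tested.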

Other observations

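Other genes of the pathways differed between tissues as well. Of 24 further ATF4 target genes, 10 were higher and 8 lower in WT hippocampus than in WT cortex (edgeR, 38.6% and 40.2% of all genes). Cebpb, a transcription factor, was at 44.2 ± 4.16 CPM in WT hippocampus and 4.05 ± 0.470 CPM in WT cortex (SD, n = 3 each, log2 fold change 3.45), and Asns, which makes asparagine, at 80.1 ± 3.10 CPM in WT hippocampus and 26.3 ± 1.44 CPM in WT cortex (1.60). Psat1 and Phgdh, enzymes of serine synthesis, were lower in WT hippocampus, at -1.58 and -1.16. Of 27 further ER folding and translocation genes, 6 were higher and 15 lower. Sec61b and Sec61g, subunits of the translocation channel, were lower in WT hippocampus at -2.30 and -2.52. Of 26 further regulators and ERAD genes, 5 were higher and 12 lower. The highest fold change of these was that of Wfs1. Wfs1, an ER membrane protein lost in Wolfram syndrome, was at 381 ± 172 CPM in WT hippocampus and 7.83 ± 0.684 CPM in WT cortex (5.60).

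In cortex, 20 of the 24 further ATF4 target genes lay above 0 in HET over WT, with a median of 0.25 against 0.01 for all genes. None was called by edgeR, and 9 had an unadjusted p under 0.05, against 7.89% of all genes. HET and WT libraries did not overlap, with HET higher, for 8 of them, against 5.26% of all genes. The number of calls in cortex rested on HET 3, and without it 20 of the 24 genes lay above 0, 9 were called higher and 1 lower, among 30.7% of all genes called. The 4 members of the ATF4 arm divided in cortex into 2 above and 2 below 0, with a median of 0.02. Cell type markers differed between cortex libraries, and their part in these values was not tested.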
